A study of Homo sapiens with 6 samples.

Results

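The TAZ and TEAD module was followed through the transcriptome of KMS27 cells with and without HA-TAZ. Its genes here are WWTR1, TEAD1, TEAD3 and VGLL4, chosen by name from the symbols in the authors' deposited table. Each of the 4 symbols had 1 Ensembl gene ID among 63677, and together they had 40 transcripts among 215170 (12 of WWTR1, 8 of TEAD1, 3 of TEAD3 and 17 of VGLL4). KMS27 is an established human multiple myeloma line, a line of malignant plasma cells. Total RNA from 3 libraries labelled wild type and 3 labelled HA-TAZ was sequenced, and HA is a short peptide tag. The labels name neither the promoter and vector of the HA-TAZ construct nor whether the cells were a clone or a pool, and wild type samples also carry HA in their titles. HA-TAZ libraries are numbered 1 to 3 as their columns are. The 3 remaining columns are headed scr, which no label mentions. By elimination they were assigned to wild type, and they appear as control a, b and c. Nothing states that the libraries of a group came from separate cultures, so p-values measure only the spread between these libraries, which may be technical.

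WWTR1 encodes TAZ, a transcriptional coactivator that has no DNA-binding domain of its own. TAZ and its paralogue YAP1 are held in the cytoplasm by the Hippo kinases, and in the nucleus they act mainly through the TEAD proteins, DNA-binding factors of which TEAD1 and TEAD3 are members. VGLL4 binds TEAD proteins through its Tondu domains and competes with YAP and TAZ for them, so it is known as an antagonist of TEAD-dependent transcription. The series' title sets TAZ in an axis with Che-1 and a microRNA, miR-590-3p, in multiple myeloma.

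The sequence of this microRNA and its seed matches in WWTR1 are shown because the 3 WWTR1 transcripts with the full coding sequence differ in their 3 prime ends. A relation between these matches and transcript levels was not tested. The mature sequence is from RefSeq (GRCh38.p14, chr7:74191253-74191273, plus strand), 5′ to 3′, with the seed, bases 2 to 8, in capitals.
hsa-miR-590-3p: uAAUUUUAuguauaagcuagu
The sequence TAAAATT, the reverse complement of this seed, was searched on the transcript strand of the 3 prime untranslated regions of the 3 WWTR1 transcripts that GENCODE release 29 gives a complete 3 prime end and the full coding sequence of 1200 bases. The longest region, 3570 bases in ENST00000465804, held 3 matches, the region of 560 bases in ENST00000360632 held 1, and the region of 195 bases in ENST00000467467 held 0. Windows of the same length after the stop codon, taken from every transcript whose 3 prime untranslated region is at least that long, held a match in 55.3% of 3585, 10.7% of 28367 and 3.20% of 45754 cases. The matches are shown in capitals with 15 bases before and 1 base after them, and the first is shared by both transcripts that hold one.
WWTR1 match 1: tcattgtatggatagTAAAATTc
WWTR1 match 2: tgtttctgaattcagTAAAATTg
WWTR1 match 3: agtactttaacttttTAAAATTt
They lie at bases 520 to 526, 1475 to 1481 and 3396 to 3402 after the stop codon. A match of this kind is a description of the letters and no evidence of binding.

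Values are TPM by the authors, a relative abundance corrected for transcript length and scaled to the same total in each library. TPM is a share and keeps no depth, so the precision of a value rests on the spread between the 3 libraries. For single transcripts a counting error is also given, from the estimated counts in the authors' deposited table. It leaves out the uncertainty of assigning reads to overlapping transcripts, so the full error may be larger. Scaled TPM means TPM divided by a factor per library (0.866, 0.967 and 0.890 for HA-TAZ 1, 2 and 3, and 1.21, 1.09 and 1.06 for control a, b and c), which moved the median log2 fold change of the 22651 genes tested from −0.27 to −0.025. Marker sums are TPM as deposited. All 9 plasma cell markers passed the filter of a mean of 1 TPM and summed to 591 to 644 TPM in HA-TAZ and 691 to 795 TPM in control libraries. In scaled TPM their median log2 fold change was −0.016, against −0.025 for all genes tested. On the log2 scale of scaled TPM, CD38 fell by 0.61, while SLAMF7 rose by 0.95 (limma, adjusted p = 0.0226 and 0.0128). These were the calls among the 9, 1 lower and 1 higher, where 2.63% of all genes were called lower and 4.67% higher. With TPM as deposited, 4 of the 9 were called lower and 1 higher (limma), where 13.5% of all genes were called lower and 1.15% higher. The T cell markers summed to under 1 TPM in every library (0.359 to 0.564 and 0.606 to 0.954 TPM). Markers of monocytes summed to 2.74 to 3.37 and 2.54 to 3.01 TPM, of stroma to 3.32 to 4.07 and 3.85 to 5.18, of endothelium to 1.70 to 2.25 and 2.74 to 4.13, and of epithelium to 2.78 to 3.90 and 4.99 to 6.08, in HA-TAZ and control libraries. In HA-TAZ libraries CD3D and KRT19 were both listed at 0 throughout, and 0 markers were at 0 in all 6 libraries. The markers that passed the filter, in HA-TAZ and control means, were CSF1R (1.57 and 1.80 TPM), COL1A1 (1.47 and 1.37), DCN (1.88 and 2.71), PECAM1 (1.96 and 3.29), KRT8 (2.35 and 3.82) and CDH1 (0.917 and 1.30). Of the 5 markers in each list, 0 (T cell), 1 (monocyte), 2 (stroma), 1 (endothelium) and 2 (epithelium) passed the filter, and 0 were called. The part of these marker levels in the results was not tested, and in bulk RNA fewer cells of a type and less RNA per cell cannot be told apart.

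WWTR1 rose to a level above every TEAD and VGLL gene. Its RNA was at 293, 306 and 293 TPM in HA-TAZ 1, 2 and 3 and at 2.69, 2.22 and 1.69 TPM in control a, b and c. The groups stood apart by a ratio of means of 135, and the libraries within each group lay close together. On the log2 scale the difference was 6.80 ± 0.088 (SE; limma, Benjamini-Hochberg adjusted p = 1.14e-05). Of the genes tested, 7.29% were called in either direction, 4.67% higher and 2.63% lower, at an adjusted p-value under 0.05.

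**Figure D1:**
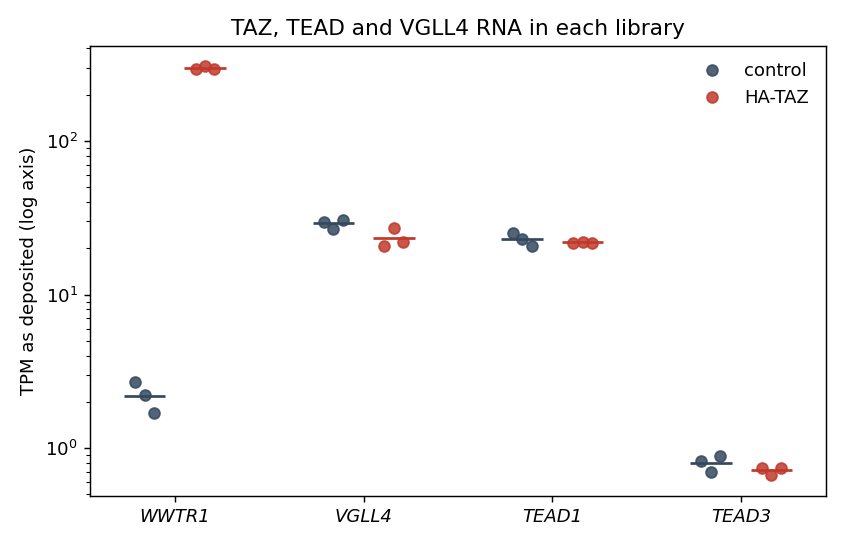
TPM as deposited (log axis) of the 4 genes in each of the 3 control and 3 HA-TAZ libraries, with points for libraries and lines for group means. WWTR1 moves from 1.69 to 2.69 TPM in controls to 293 to 306 TPM in HA-TAZ libraries, while TEAD1, VGLL4 and TEAD3 keep overlapping ranges.

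Within WWTR1, the rise lay in transcripts with most of their bases inside the full coding sequence of the gene. ENST00000467467.1 holds the whole coding sequence between short untranslated ends, so that 74.9% of its 1603 bases are coding. HA-TAZ 1, 2 and 3 held 166, 181 and 158 TPM of it, and it was listed at 0 in all control libraries. ENST00000485352.1, a fragment of 503 bases with 82.7% inside the coding sequence, was at 82.0, 73.1 and 92.6 TPM in HA-TAZ 1, 2 and 3 and listed at 0 in all control libraries. ENST00000494754.1, of 566 bases with 75.8% inside that coding sequence, was at 43.8, 47.2 and 36.4 TPM in HA-TAZ 1, 2 and 3. It is annotated for nonsense-mediated decay, and only 86 of its bases are coding in its own annotation. It was listed at 0 in control a and control c and at 0.708 TPM in control b. These 3 were the transcripts called in the fit over all transcripts (limma, adjusted p = 1.65e-06, 7.54e-05 and 0.00149), where 0.534% of 57448 transcripts were called, 0.432% higher and 0.103% lower. All 3 passed the filter of a mean of 1 TPM only through HA-TAZ libraries (control means of 0, 0 and 0.236 TPM). Their calls therefore carry no weight against that share.

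The 2 other transcripts with the full coding sequence carry longer untranslated ends and stayed under 1 TPM. ENST00000465804.1, of which 23.9% of 5030 bases are coding, was at 0.288, 0.263 and 0.293 TPM in HA-TAZ 1, 2 and 3 and at 0.625, 0.477 and 0.365 TPM in control a, b and c. All HA-TAZ values were below all control values, also in scaled TPM (0.333, 0.272 and 0.329 against 0.517, 0.438 and 0.345). With 3 against 3 libraries an exact permutation test, two-sided, cannot go below the p = 0.1 found here. In the authors' deposited table the natural log effect of this transcript was −0.300 ± 0.153 (SE), at a q-value of 0.309. ENST00000360632.3, with 57.1% coding bases, was listed at 0 in HA-TAZ 1 and HA-TAZ 2 and at 0.255 TPM in HA-TAZ 3, against 0.0406, 0.0935 and 0.272 TPM in control a, b and c. Its groups overlapped. The processed transcript ENST00000474080.1, with no coding base, was at 0.272, 0.159 and 0.355 TPM in HA-TAZ and 0.327, 0.263 and 0.498 TPM in control libraries, again with overlap.

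**Figure D2:**
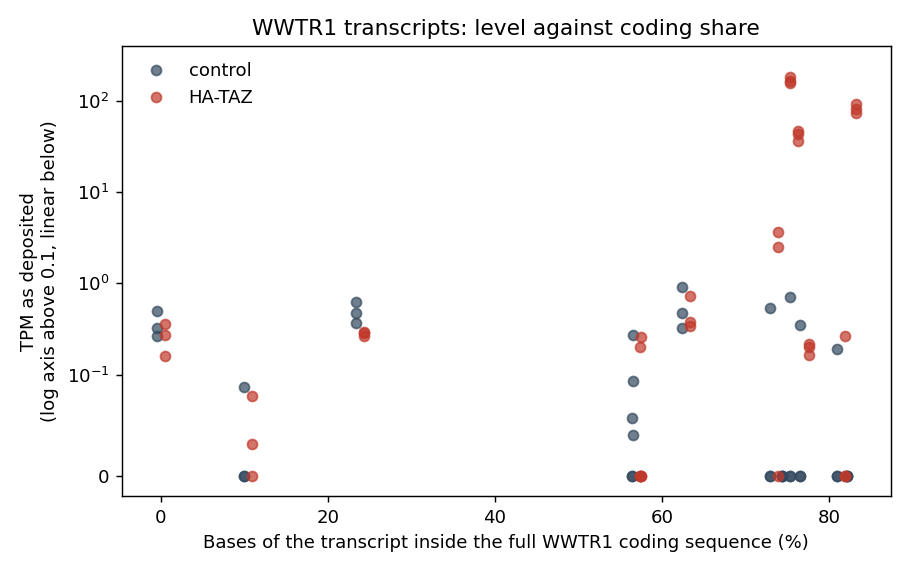
TPM of each of the 12 WWTR1 transcripts in each library (vertical axis, logarithmic above 0.1 and linear below) against the percent of its bases that lie in the full WWTR1 coding sequence, with 6 points per transcript, drawn slightly left (control) or right (HA-TAZ) of the true value. Points above 10 TPM belong to 3 transcripts, all in HA-TAZ libraries, with coding shares between 74.9% and 82.7%, and transcripts with under 70% of their bases in the coding sequence stay under 1 TPM in both groups.

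Split at 70% of bases inside the coding sequence, a limit chosen after the values were seen, the 6 WWTR1 transcripts above it summed to 292, 305 and 291 TPM in HA-TAZ 1, 2 and 3 and to 0.723, 1.06 and 0 TPM in control a, b and c. The 6 below it summed to 1.02, 0.961 and 1.67 TPM in HA-TAZ and 1.96, 1.16 and 1.69 TPM in control libraries. The second set overlapped between the groups and the first did not. A high coding share did not go with a high level in each case. ENST00000472417.1, with 77.1% coding bases, was at 0.201, 0.215 and 0.166 TPM in HA-TAZ libraries, and was listed at 0 in control a and control c and at 0.353 TPM in control b. ENST00000471586.1, annotated for nonsense-mediated decay, had 73.5% of its bases inside the full coding sequence but only 125 coding bases of its own. It was listed at 0 in HA-TAZ 1 and was at 2.50 and 3.65 TPM in HA-TAZ 2 and HA-TAZ 3. Among controls it was above 0 only in control a (0.534 TPM).

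TPM divides by length, so short fragments weigh more in the WWTR1 sum than in reads. The means and effects in the authors' deposited table imply, as geometric means on the authors' scale, 17626 estimated counts per HA-TAZ library for ENST00000467467.1, 1834 for ENST00000485352.1 and 1133 for ENST00000494754.1. The first therefore held 84.9% of the WWTR1 estimated counts but 56.7% ± 2.66 (SD, n = 3) of WWTR1 TPM in HA-TAZ libraries. The second held 8.83% of the estimated counts and 27.8% ± 3.87 (SD, n = 3) of TPM, and the third 5.46% and 14.3% ± 1.61 (SD, n = 3). Over the 9 WWTR1 transcripts with statistics in the authors' deposited table, the implied sums were 20770 estimated counts in HA-TAZ and 204 in control libraries. Their ratio was 102, against 135 for the ratio of mean TPM.

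The antisense gene WWTR1-AS1 was at 0.464, 0.821 and 0.545 TPM in HA-TAZ 1, 2 and 3 and at 0.812, 0.653 and 0.546 TPM in control a, b and c. The groups overlapped. The libraries were stranded, but use of the strand in quantification is not given in the sources used here, so reads of WWTR1 and its antisense partner may not be fully separated.

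TEAD1 was the most abundant TEAD gene. Its RNA stood at 21.7, 22.1 and 21.8 TPM in HA-TAZ 1, 2 and 3 and at 25.03, 22.9 and 20.7 TPM in control a, b and c, so the groups overlapped as deposited. TEAD3 was at 0.742, 0.667 and 0.746 TPM in HA-TAZ and 0.821, 0.697 and 0.883 TPM in control libraries, also with overlap. TEAD2 had means of 0.0215 ± 0.00983 and 0.0368 ± 0.0184 TPM (SD, n = 3 each), and TEAD4 was listed at 0 in 4 of 6 libraries, the exceptions being HA-TAZ 2 (0.0697 TPM) and control c (0.0564 TPM). TEAD1 held 96.6% ± 0.0735 of the summed TPM of TEAD1 to TEAD4 in HA-TAZ and 96.4% ± 0.817 in control libraries (SD, n = 3 each).

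In scaled TPM, TEAD1 was at 25.1, 22.9 and 24.5 in HA-TAZ 1, 2 and 3 and at 20.7, 21.0 and 19.6 in control a, b and c. The groups did not overlap on this scale, as for 38.5% of all genes tested (20.2% higher and 18.3% lower). The log2 difference of 0.23 ± 0.057 (SE) had a 95% interval from 0.090 to 0.37 and missed the threshold (limma, Benjamini-Hochberg adjusted p = 0.0648, from 0.0434 to 0.607 over the alternatives). With TPM as deposited it turned to −0.058 (limma, adjusted p = 0.607). With genes of a mean of at least 5 TPM, of which 17.8% were called, the same fold change of 0.23 passed (limma, adjusted p = 0.0434).

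TEAD1 RNA was spread over 6 transcripts with at least 0.1 TPM in a group. ENST00000361905.4 was the most abundant, at 8.11, 9.59 and 9.17 TPM in HA-TAZ 1, 2 and 3 and at 8.02, 8.43 and 7.99 TPM in control a, b and c. With 5279 estimated counts in the authors' deposited table, its counting error was about 1.38%, which leaves out the assignment of reads among TEAD1 transcripts. Among TEAD1 transcripts the authors' deposited table gives only this one a q-value below 0.05 (7.90e-06), at a natural log effect of 0.321 ± 0.0588 (SE). There, 5.68% of 109487 transcripts lie below 0.05, 4.08% lie below it with a positive effect, and 3.05% lie below 0.01. In the fit over all transcripts it differed by 0.39 ± 0.091 (log2, SE) and was not called (limma, adjusted p = 0.0940). ENST00000527376.1, a fragment of 477 bases, had the highest fold change among the 6 (0.71 on the log2 scale, standard error 0.28, limma adjusted p = 0.195) and a larger counting error of 11.3%. Without control a its log2 fold change was 0.42, and with TPM as deposited 0.47.

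The TEAD1 transcripts ENST00000361985.2 and ENST00000334310.6 varied within the groups. ENST00000361985.2 was at 2.62, 2.38 and 0.331 TPM in HA-TAZ 1, 2 and 3 and at 5.996, 2.77 and 2.22 TPM in control a, b and c, so HA-TAZ 3 was low and control a was high. Its counting error was 3.02%, while its natural log effect in the authors' deposited table had a standard error of 0.729. ENST00000334310.6 was at 2.11, 1.71 and 2.24 TPM in HA-TAZ 1, 2 and 3 against 4.91, 2.00 and 2.21 TPM in control a, b and c, where control a again stood above the others. Control a was at the same time the lowest for ENST00000527376.1 (2.17 TPM, against 4.61 and 3.98 TPM in control b and control c). ENST00000525312.1, annotated as a retained intron, took 8.37%, 9.87% and 9.59% of TEAD1 TPM in HA-TAZ 1, 2 and 3 and 10.3%, 11.6% and 11.9% in control a, b and c. Its share was lower in all HA-TAZ libraries (exact two-sided permutation p = 0.1), and was the one TEAD1 share of 6 without overlap, where 18.7% of all such transcripts of genes with several transcripts had shares without overlap.

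TEAD3 lay under the filter of 1 TPM and was compared on its own. Its difference in mean log2(scaled TPM + 1) was 0.064 (exact two-sided permutation p = 0.2), and −0.067 with TPM as deposited (p = 0.3). Fitted with all genes and no filter on level, TEAD3 was not called either (limma, adjusted p = 0.740). The gene total was steadier than its transcripts. ENST00000338863.7, the protein-coding transcript, was at 0.287, 0.667 and 0.128 TPM in HA-TAZ 1, 2 and 3 and at 0.454, 0.379 and 0.242 TPM in control a, b and c. ENST00000402886.3, annotated for nonsense-mediated decay, was low where the first was high among HA-TAZ libraries, with 0.455, 1.43e-05 and 0.618 TPM in HA-TAZ and 0.368, 0.318 and 0.547 TPM in control libraries. Both rested on few reads, 59.6 and 32.7 estimated counts in the authors' deposited table, so their split is uncertain.

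VGLL4 was the most abundant VGLL gene. Its RNA stood at 20.8, 27.1 and 22.0 TPM in HA-TAZ 1, 2 and 3 and at 29.8, 26.6 and 30.7 TPM in control a, b and c. HA-TAZ 2 lay above control b, so the groups overlapped. In scaled TPM it was at 24.1, 28.0 and 24.7 in HA-TAZ and at 24.7, 24.4 and 29.03 in control libraries. The log2 difference was −0.022 ± 0.092 (SE), with a 95% interval from −0.25 to 0.21 (limma, Benjamini-Hochberg adjusted p = 0.891). With TPM as deposited it was −0.31, close to the median of all genes in that fit of −0.27, and was not called (limma, adjusted p = 0.0986). The sign was positive without HA-TAZ 1 (0.025), HA-TAZ 3 (0.0053) or control c (0.055).

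The other VGLL genes were low. VGLL3 was at 0.251, 0.302 and 0.250 TPM in HA-TAZ 1, 2 and 3 and at 0.434, 0.337 and 0.414 TPM in control a, b and c. All HA-TAZ values were lower as deposited (exact two-sided permutation p = 0.1), but the groups overlapped in scaled TPM. VGLL1 and VGLL2 were listed above 0 in HA-TAZ 3 alone, at 0.0433 and 0.00720 TPM. YAP1 was at or under 0.0087 TPM in every library.

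VGLL4 RNA came mainly from transcripts at a pair of start sites, and their promoters are shown for that reason. RefSeq promoters were found for 3 of the 4 genes (WWTR1, TEAD3 and VGLL4), with 5 for VGLL4. The windows run from 250 bases before to 50 bases after the start, on the minus strand of GRCh38.p14, 5′ to 3′, with the bases after the start in capitals. The first belongs to ENST00000430365.2 and the second is the window nearest to ENST00000273038.3.
VGLL4 start at chr3:11643866-11644165: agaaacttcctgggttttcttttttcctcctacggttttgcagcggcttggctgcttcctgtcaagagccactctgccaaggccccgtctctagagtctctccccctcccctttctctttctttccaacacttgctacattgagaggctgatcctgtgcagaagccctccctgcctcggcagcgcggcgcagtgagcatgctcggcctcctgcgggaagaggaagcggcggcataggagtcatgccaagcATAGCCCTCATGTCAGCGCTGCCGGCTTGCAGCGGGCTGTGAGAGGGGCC
VGLL4 start at chr3:11720490-11720789: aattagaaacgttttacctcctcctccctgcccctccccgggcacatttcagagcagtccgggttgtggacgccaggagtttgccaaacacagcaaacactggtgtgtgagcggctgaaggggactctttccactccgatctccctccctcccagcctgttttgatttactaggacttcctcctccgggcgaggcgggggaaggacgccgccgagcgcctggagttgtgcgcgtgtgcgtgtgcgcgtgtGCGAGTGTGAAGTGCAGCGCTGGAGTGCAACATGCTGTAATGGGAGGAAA
The TEAD core motif GGAATG was searched on both strands. It was in 0 of the 8 promoter windows of these genes and in 14.0% of 35116 windows of the same length, which says only that these letters are not in these windows. The GC content of both windows, 59.7% and 59.3%, was near the median of 58.7% over all windows.

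Transcripts starting within 250 bases of the upstream start had summed TPM of 8.91 ± 1.38 (HA-TAZ) and 11.7 ± 1.82 (control; SD, n = 3 each), and the groups overlapped. The transcript of the downstream start took a larger share of VGLL4 in HA-TAZ libraries. This transcript, ENST00000430365.2, with 1377 bases, took 37.6%, 30.05% and 33.3% of VGLL4 TPM in HA-TAZ 1, 2 and 3 and 25.7%, 28.9% and 22.8% in control a, b and c. Its share was higher in all HA-TAZ libraries, at 33.6% ± 3.79 and 25.8% ± 3.08 (SD, n = 3 each, exact two-sided permutation p = 0.1). In TPM as deposited its groups overlapped, with 7.84, 8.14 and 7.32 TPM in HA-TAZ and 7.67, 7.71 and 6.99 TPM in control libraries. Over all transcripts fitted it differed by 0.32 ± 0.084 (log2, SE; limma, adjusted p = 0.109), and the authors' deposited table gave a q-value of 0.0753. Neither passed the threshold.

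ENST00000273038.3, which starts at the upstream site and has a 3 prime untranslated region of 2486 bases, took 30.3%, 25.6% and 26.0% of VGLL4 TPM in HA-TAZ 1, 2 and 3 and 26.0%, 24.8% and 23.1% in control a, b and c, with overlap. Of the 14 VGLL4 transcripts with at least 0.1 TPM in a group, 3 had a share that was higher and 2 a share that was lower in HA-TAZ libraries without overlap, and 9 overlapped. The background was again 18.7%. The 2 lower shares belonged to ENST00000480288.1, a processed transcript (2.82%, 3.37% and 2.49% against 3.77%, 4.56% and 5.27%), and ENST00000458499.1, a fragment with an incomplete 3 prime end (1.08%, 2.16% and 2.48% against 3.29%, 3.36% and 3.07%). The 2 higher shares beside ENST00000430365.2 were those of ENST00000418000.1 and ENST00000424529.2, each under 1 TPM and with counting errors of 23.6% and 39.5%. ENST00000424529.2 reached the minimum of 0.1 TPM only in HA-TAZ libraries (means of 0.206 and 0.0736 TPM), so its place among the higher shares carries no weight. No VGLL4 transcript was called by limma among 6 tested, or had a q-value under 0.05 among 13 in the authors' deposited table, where 5.68% of transcripts did.

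**Figure D3:**
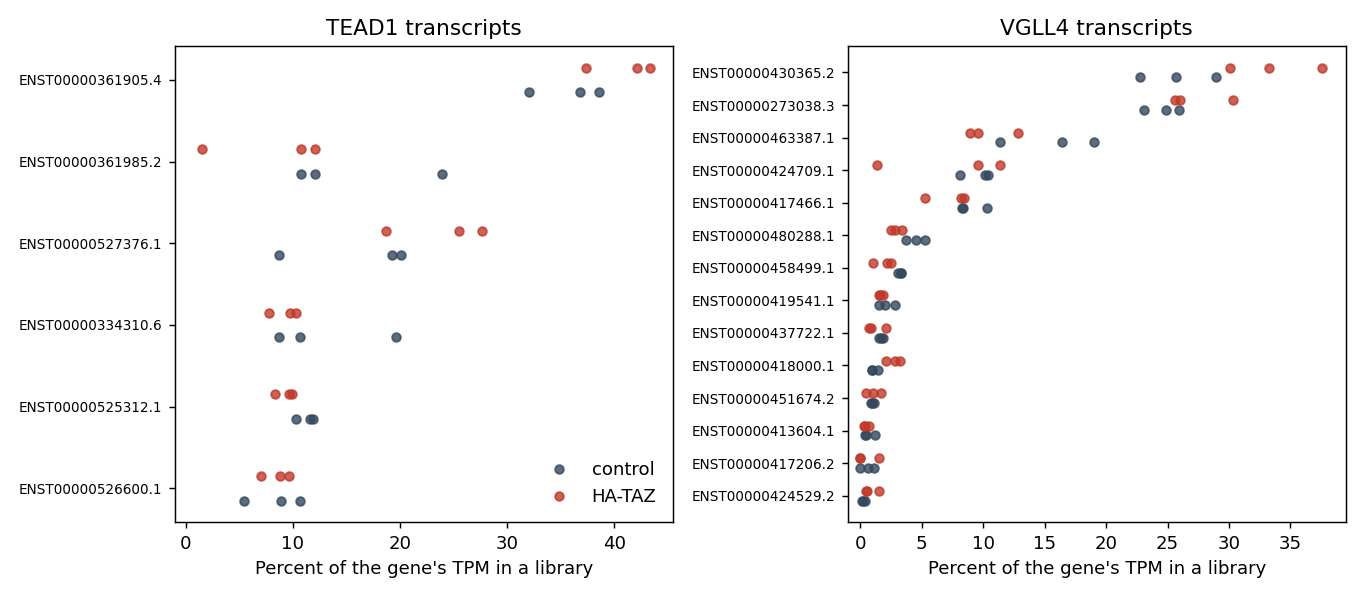
Percent of the gene's TPM held by each TEAD1 (left) and VGLL4 (right) transcript with at least 0.1 TPM in a group, with 1 point for each of the 3 control and 3 HA-TAZ libraries. The share of ENST00000430365.2 in VGLL4 is 30.05% to 37.6% in HA-TAZ and 22.8% to 28.9% in control libraries, and control a stands apart for 3 TEAD1 transcripts.

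The balance between TAZ, TEAD and VGLL4 RNA within a library does not depend on the scaling between libraries. WWTR1 TPM per summed TPM of TEAD1 to TEAD4 was 13.0, 13.4 and 13.0 in HA-TAZ 1, 2 and 3 and 0.104, 0.0938 and 0.0781 in control a, b and c. The groups stood far apart (exact two-sided permutation p = 0.1). WWTR1 per VGLL4 was 14.1, 11.3 and 13.3 in HA-TAZ and 0.0900, 0.0832 and 0.0552 in control libraries. VGLL4 per TEAD was 0.926, 1.18 and 0.976 in HA-TAZ and 1.15, 1.13 and 1.41 in control libraries, and these groups overlapped (exact two-sided permutation p = 0.3). The order of TPM in controls was VGLL4, TEAD1, WWTR1, TEAD3 and VGLL3, with no overlap between neighbours. In HA-TAZ libraries WWTR1 came first, VGLL4 and TEAD1 overlapped, and TEAD3 and VGLL3 followed without overlap.

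**Figure D4:**
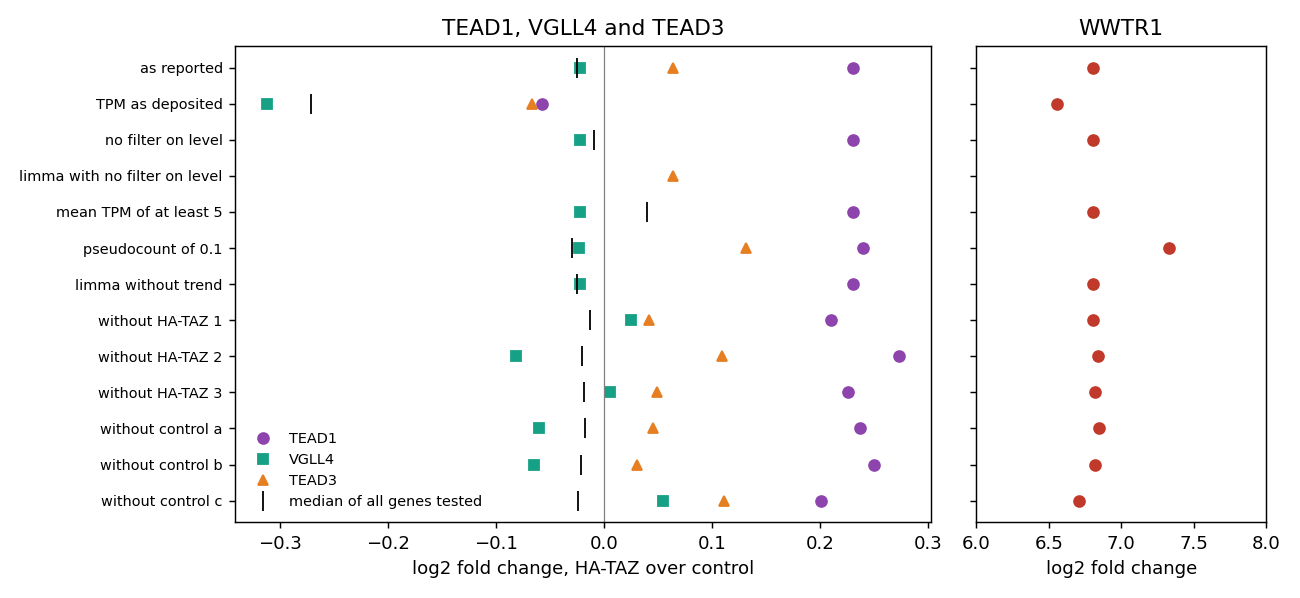
Log2 fold change of HA-TAZ over control for TEAD1, VGLL4 and TEAD3 (left) and WWTR1 (right) as reported and under each alternative, with the median of all genes tested as black ticks. With TPM as deposited the 3 genes on the left are all below 0 and the median of all genes is −0.27, and WWTR1 lies between 6.55 and 7.33 in every setting.

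The genes around the module were counted from lists by function. Of 30 tested gene IDs of Hippo regulators, kinases, scaffolds and 14-3-3 proteins, 5 were called higher and 0 lower, and 10 had an unadjusted p-value under 0.05 (limma). Over all genes tested, 4.67% were called higher and 2.63% lower, and 6959 of 22651 had an unadjusted p-value under 0.05 (limma). The 10 included STK3 (−0.16) and TAOK3 (−0.20, both log2 fold changes), which were lower. The median log2 fold change of the 30 was 0.12, against −0.025 for all genes tested. RASSF1 counts among the 30 under a pair of gene IDs with the same values. The 14-3-3 proteins hold phosphorylated TAZ in the cytoplasm, and their genes YWHAG (0.49), YWHAQ (0.23) and YWHAB (0.18, all log2 fold changes) were among the 5. Other 14-3-3 genes, outside the naming rule, were not called: YWHAZ (0.13), YWHAE (0.12) and YWHAH (0.088; limma, adjusted p = 0.189, 0.222 and 0.278). SFN, the remaining 14-3-3 gene of the list, lay under the filter and was not tested. As deposited, every HA-TAZ library held less of SFN (mean 0.678 TPM) than every control (mean 1.22 TPM). CSNK1E, a casein kinase of the type that takes part in marking TAZ for degradation, rose by 0.56, and WWC3, a scaffold of the Hippo kinases, by 0.26 on the log2 scale. With TPM as deposited only CSNK1E kept its call, YWHAG remained positive (0.19), and YWHAQ, YWHAB and WWC3 were at −0.072, −0.12 and −0.019. In that fit 3 other regulators of 30 were called lower, STK3 (−0.45), TAOK3 (−0.48) and STRN3 (−0.45), named here outside the naming rule. There, 13.5% of all genes were called lower and 1.15% higher (14.7% in all).

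Of 21 tested nuclear cofactors and partner factors of TAZ and TEAD, 7 were called higher and 0 lower, with 9 at an unadjusted p-value under 0.05 (limma) and a median log2 fold change of 0.12. The background was 4.67% higher and 2.63% lower, with 6959 of 22651 genes at an unadjusted p-value under 0.05 (limma). The called genes include 5 that encode JUN and FOS family subunits of the factor AP-1. JUNB rose by 1.39, JUN by 1.04, FOS by 0.82, FOSL2 by 0.54 and JUND by 0.45 on the log2 scale, where JUND lies outside the naming rule and was added after its value was seen. FOSL1, the other FOS family gene of the list, also added after its value was seen, was at 0.577, 1.01 and 1.03 TPM in HA-TAZ 1, 2 and 3 and at 1.66, 1.06 and 1.94 TPM in control a, b and c. Its HA-TAZ values were all lower as deposited, and its log2 fold change of −0.28 was not called (limma, adjusted p = 0.336). RUNX3, a factor with a PPxY motif that binds the WW domain of TAZ, rose by 0.55, and the chromatin remodeller SMARCA4 by 0.23. The other RUNX genes of the list, outside the naming rule, were not called. RUNX1 was at −0.11 and RUNX2 at 0.10 (limma, adjusted p = 0.114 and 0.775). With TPM as deposited, JUNB (1.10), JUN (0.77) and RUNX3 (0.27) kept their calls. FOS (0.56), FOSL2 (0.30) and JUND (0.16) remained positive without one, and SMARCA4 was at −0.066. In that fit 2 others of the 21 were called lower, RUNX1 (−0.41) and CREBBP (−0.34), against 13.5% of all genes.

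Of the 22 YAP and TAZ targets, most were too low to test: 7 of 23 gene IDs passed the filter, with 2 called higher and 1 lower, against 4.67% and 2.63% of all genes. On the log2 scale ANKRD1 rose by 1.99 (limma, adjusted p = 0.00135), GADD45A rose by 0.88 and DOCK5 fell by 0.42. ANKRD1 was at 3.03, 3.41 and 2.97 TPM in HA-TAZ 1, 2 and 3 and at 0.145, 0.128 and 0.130 TPM in control a, b and c, without overlap. It passed the filter of a mean of 1 TPM only through HA-TAZ libraries (means of 3.14 and 0.134 TPM), so its place in this count carries no weight. Of the list, 2 gene IDs had a mean of at least 5 TPM. In that fit 0 were called higher and 1 lower, where 17.8% of all genes were called. The median log2 fold change of the 7 was −0.037, with CRIM1 counted under a pair of gene IDs with the same values. All 3 calls held with TPM as deposited.

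The genes most like each member over the 6 libraries were taken by the root mean square difference of centred log2(scaled TPM + 1) among genes with a mean of at least 10 TPM. For WWTR1 these were UBD (1.30), CXCL10 (1.72) and MIR155HG (2.23), where the median over 9049 genes was 3.37, so that even the nearest profile differed by over 1 unit of log2. They were at 34.8 ± 3.41 and 1.26 ± 0.164 TPM (UBD, ENSG00000206468, 1 of 3 tested gene IDs of that symbol), 36.5 ± 2.46 and 3.32 ± 0.144 TPM (CXCL10) and 21.8 ± 1.53 and 4.36 ± 0.371 TPM (MIR155HG) in HA-TAZ and control libraries (SD, n = 3 each). All 3 had control means under 10 TPM and entered this comparison only through HA-TAZ libraries, so their likeness to WWTR1 carries no weight. For TEAD1 the nearest were EIF3K (0.0177) and FTSJ1 (0.0246, listed under a pair of gene IDs with the same values), for TEAD3 MROH1 (0.0242), TXN2 (0.0247) and FOXRED1 (0.0255), and for VGLL4 RPS9 (0.0301), SNAP29 (0.0494) and TBC1D23 (0.0497). The medians over all genes for these 3 were 0.151, 0.144 and 0.173, so that a flat profile has many near neighbours.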

How the data were processed

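Total RNA of 3 HA-TAZ and 3 wild type KMS27 samples was sequenced after depletion of ribosomal RNA, per the labels' protocols. The authors deposited TPM for 215170 transcripts, and all 6 columns were used. A second deposited table holds the authors' comparison per transcript, with p-values and q-values and, per the file headers, effects and means on a natural log scale. Its mean and effect, assuming sleuth's default offset of 0.5, gave each group's estimated count. Per the submitters' processing notes, kallisto 0.46.0 and sleuth 0.30.0 were used with GRCh37. The transcript annotation release is not given in the sources used here.

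TPM was summed per gene ID and divided by a median-of-ratios factor over 21512 genes with a mean of at least 1 TPM and above 0 in all libraries. Transcripts used the factors of the gene table. Genes or transcripts with a mean of at least 1 TPM were tested with limma 3.58.1 (R 4.3.3), on log2 of scaled TPM plus a pseudocount of 1. The prior variance followed a trend on mean level, tests were two-sided, and p-values were adjusted by Benjamini-Hochberg over all features tested, at a threshold of 0.05. Fold changes on this scale understate changes of low genes. An exact permutation test over libraries, two-sided, served for single values (scipy 1.17.1). The fit was tested on simulated data. Transcript structures came from GENCODE release 29 (GRCh38), which held 36 of the 40 transcripts by ID without version. The microRNA and promoters came from RefSeq (GRCh38.p14). Alternatives changed the scaling, the filter, the pseudocount, the trend and the libraries. The members and gene lists were chosen with earlier results of these data known. Named transcripts are those with a mean of at least 0.1 TPM in a group, named list genes those called (at most 6 per direction), and 3 genes per member were named as most alike.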

Additional observations from a re-analysis of the deposited data

How the results depend on the processing

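WWTR1 was called higher under each alternative run, with log2 fold changes from 6.55 (TPM as deposited) to 7.33 (pseudocount of 0.1), and 6.71 to 6.85 when any 1 of the 6 libraries was left out. TEAD1 turned to −0.058 with TPM as deposited and passed the threshold at a mean of at least 5 TPM (0.23, limma adjusted p = 0.0434). It ranged from 0.20 to 0.27 without each library in turn. VGLL4 ranged from −0.081 to 0.055 across these fits, with a positive sign in 3 of 6. TEAD3 ranged from 0.030 to 0.11 and was at −0.067 with TPM as deposited. For these moves the cause was not tested, other than the shift of the median of all genes to −0.27 with TPM as deposited.

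The 1652 called genes became 3329 with TPM as deposited (7.84% higher, against 64.0%), 691 with no filter on level (72.4% higher) and 758 with limma without trend. The 307 called transcripts became 120, 108 and 156 under these settings (57.5%, 92.6% and 86.5% higher, against 80.8%) and 1655 at a mean of at least 5 TPM. Leaving out a library gave 118 (without HA-TAZ 1) to 470 called genes (without control c), 12 (without HA-TAZ 2) to 114 called transcripts (without control a), and 12 to 17 of 31 member transcripts whose shares did not overlap, against 12. Over all transcripts such shares made up 27.1% to 31.6% in these fits, against 18.7% with all libraries. Fewer libraries entered these fits. Of the 12 shares with all libraries, WWTR1 gave 2 higher and 4 lower, TEAD1 1 lower, and VGLL4 3 higher and 2 lower. The WWTR1 shares are taken of a total that rose in HA-TAZ libraries with its called transcripts. The pooled count is therefore no measure of the members against that background. At a q-value under 0.01, 4 member transcripts remained in the authors' deposited table, as at 0.05.

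No paired analysis was possible because the control columns are headed scr, which no label mentions, and no label ties their numbers to particular samples.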
